A study of Rattus norvegicus with 6 samples.

Results

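The genes described here are 10 glycosyltransferases that build mucin-type sugar chains in the colon of rats given azoxymethane (AOM), a carcinogen of the colon: Galnt3, C1galt1, Gcnt1, Gcnt3, B3gnt3, B3gnt7, Fut1, Fut2, St3gal4 and St6gal1. Array probes were assigned to genes by matching their accession to rat RefSeq genes, which gave 13 probes for these 10 genes among 15168 genes matched in all. Each of the 10 had at least 1 probe bright enough to be tested, among 12396 such genes. The 10 were picked with the difference between the strains already known, so that their differences between strains are given as a description, with no test.

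The 3 rats C1, C2 and C3 were S.LEW(10)x12x2x3x5 congenic males, which carry a segment of the Lewis (LEW) genome on the background of the Dahl salt-sensitive (S) strain, and the 3 rats S1, S2 and S3 were males of the S strain itself. Both strains ate a diet with 0.3% salt after weaning, were injected with AOM in 2 consecutive weeks at 15 mg per kg, the first time at an age of 6 weeks, and were killed at 30 weeks. All 6 rats had AOM, and the labels give 1 congenic line and colon tissue with induced tumors, without saying how much of a sample was tumor. RNA of each colon was read on 1 single-color Agilent array. The study asked how the strains differ in the colon after AOM.

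Mucins are large proteins of the mucus and of the cell surface whose weight is mostly sugar. Their sugar chains start when a polypeptide GalNAc-transferase puts N-acetylgalactosamine on a serine or threonine, and they are then built up by core enzymes, lengthened by extension enzymes, and ended by fucose, sialic acid or sulfate. In the colon these chains make up the gel that keeps bacteria from the epithelium. Several of the enzymes also act on other glycoproteins and are used by other cells, including lymphocytes.

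Levels are given as log2 signal, the log2 of the background-corrected intensity after quantile normalization, so that a step of 1 is a 2-fold change. The differences between strains are congenic minus S on this scale, with the standard error of the fit by limma, which moderates each probe's variance by that of all probes. A probe counted as past the cut-offs at an unadjusted p under 0.05 with a change of at least 2-fold, as 775 higher probes (3.23%) and 563 lower probes (2.35%) of 23971 were. No probe had an adjusted p under 0.05 with limma, although 3108 probes (13%) had an unadjusted p under 0.05. A gene is given by its brightest tested probe unless stated, and levels of different genes are not compared because probes differ in response.

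The S rats were unlike each other. S2 was nearer to the congenic rats, with correlations across probes of 0.967 to 0.976, than to S1 (0.900) or S3 (0.936). Of 14 lymphocyte markers listed, 12 were matched and 8 tested, and 6 of these were lower in the congenic rats. Relative to the mean of the 6 rats, the average log2 signal of the 8 lay between -1.48 and -1.31 in the congenic rats and at 2.80, -1.19 and 2.50 in S1, S2 and S3. Cd3e, Cd2, Cd79b and Ccr7, the matched markers of the list that were not tested, were well above background in S1 and S3 alone. The brightest tested markers were Cd3d, Pax5 and Cd3g. Cd3d and Cd3g were lower in the congenic rats, at -1.08 and -2.31, whereas Pax5 differed by -0.02 and was highest in S2. The epithelial markers Lgals4, Krt19 and Cldn3 were bright in all 6 rats, with a lowest log2 signal of 13.34. They were not even between the strains, being higher in the congenic rats without overlap, by 0.80, 0.94 and 0.57. Slides were inferred from the scan identifier recorded with each array. By it, C1 shared a slide with the 3 S rats, while C2 and C3 lay on the other slide. In such whole tissue, fewer cells of a type and less RNA per cell cannot be told apart.

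Against this background, B3gnt7 was far lower and Gcnt3 far higher in the congenic rats, and these were the only members past the cut-offs at their brightest probe. At the same cut-offs 3.79% of all genes were higher and 2.63% lower. The congenic rats lay wholly above the S rats for Gcnt3, Galnt3 and Fut1, and wholly below them for B3gnt7, where 14.2% of all genes were wholly above and 4.98% wholly below (19.2% together). The remaining 6 members overlapped between the strains. The median difference over the 10 members was -0.43, beside 0.03 over all genes tested, with 4 members above 0 and 6 below. It describes these picked genes only. The spread within a strain was larger among the S rats than among the congenic rats for 9 of the 10 members, with a median SD of 0.745 against 0.208, and Galnt3 was the exception. The same was true of 8938 of the 12396 genes tested, whose median SD was 0.368 among the S rats and 0.211 among the congenic rats.

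**Figure D1:**
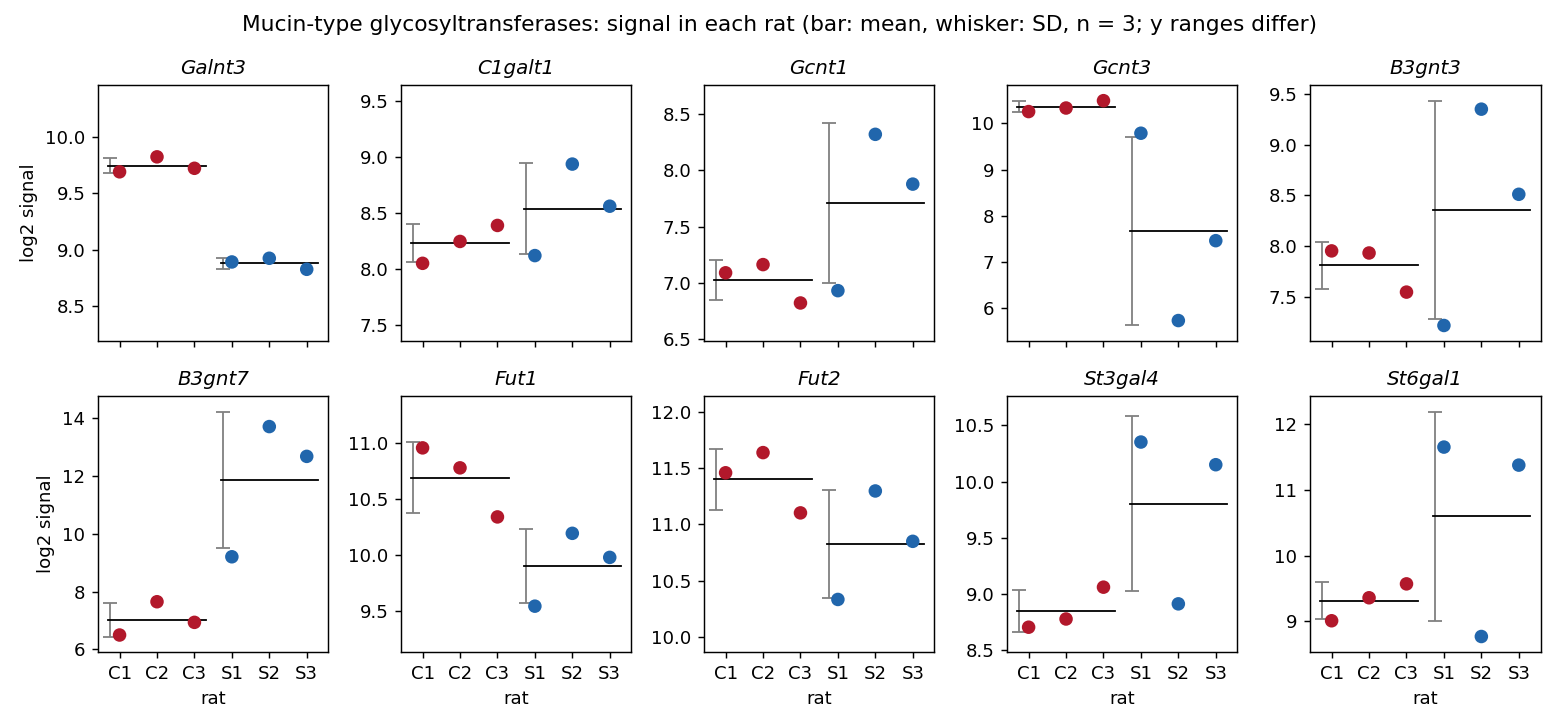
Log2 signal (vertical axes, with a range of its own for each gene) of the 10 members in each of the 6 rats (horizontal axes); red points are congenic rats, blue points S rats, bars the strain means and whiskers the SD (n = 3). The congenic points lie close together in each panel, while S1, S2 and S3 lie far apart for B3gnt7, Gcnt3 and St6gal1.

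The promoters of B3gnt7, Gcnt3 and St6gal1 are shown because these members differed most among the S rats, B3gnt7 with S2 highest and Gcnt3 and St6gal1 with S1 highest. RefSeq promoter sequences of the GRCr8 build were in hand for 9 of the 10 members, Fut1 being the one without an entry, and St3gal4 had 3. The stretches are the 250 bases before the annotated start, at chr9:94403947-94404196 on the plus strand for B3gnt7, chr8:79573558-79573807 on the minus strand for Gcnt3 and chr11:91040405-91040654 on the minus strand for St6gal1, printed in the direction of transcription. Capitals mark the GC box, spelled GGGCGG. They also mark the box named for its letters, CCAAT, and the TATA box, here the letters TATAAA. All were searched on both strands, and no marked stretches overlap.
B3gnt7: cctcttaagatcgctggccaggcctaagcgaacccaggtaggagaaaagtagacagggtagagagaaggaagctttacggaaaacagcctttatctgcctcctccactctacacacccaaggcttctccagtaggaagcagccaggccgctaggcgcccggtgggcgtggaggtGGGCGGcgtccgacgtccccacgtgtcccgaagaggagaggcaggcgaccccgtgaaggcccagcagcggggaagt
Gcnt3: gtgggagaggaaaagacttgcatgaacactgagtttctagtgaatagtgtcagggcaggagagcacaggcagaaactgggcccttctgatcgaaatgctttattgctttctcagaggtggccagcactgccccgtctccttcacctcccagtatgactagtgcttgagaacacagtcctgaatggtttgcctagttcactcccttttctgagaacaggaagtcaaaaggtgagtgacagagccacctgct
St6gal1: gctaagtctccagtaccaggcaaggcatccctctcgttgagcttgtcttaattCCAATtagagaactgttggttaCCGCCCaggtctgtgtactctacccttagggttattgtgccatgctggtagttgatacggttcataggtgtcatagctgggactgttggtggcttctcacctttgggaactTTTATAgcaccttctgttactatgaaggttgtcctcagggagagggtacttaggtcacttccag
The B3gnt7 stretch was 61.6% G and C and held 1 GC box. That of St6gal1 was 48% G and C and held 1 match to each motif. The Gcnt3 stretch was 50% G and C, and none of these letters occurred in it. Of 33469 rat promoters of the same length, 30.5% held a GC box, 34% a CCAAT box and 12.9% a TATA box, so that a match is a description and not a site.

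Galnt3 is one of the polypeptide GalNAc-transferases that start a chain. Its log2 signal was 9.69, 9.82 and 9.72 in C1, C2 and C3, and 8.89, 8.92 and 8.82 in S1, S2 and S3. Every congenic rat was above every S rat, and the rats of a strain were nearly alike. The difference was 0.87 (standard error 0.16), a 1.82-fold higher level, which is under the 2-fold cut-off. The SD among the S rats, 0.05, was larger than that of 2.14% of all genes, so that Galnt3 did not share the spread of S1, S2 and S3 seen at most other members. Leaving out each rat in turn, the difference stayed between 0.82 and 0.90.

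C1galt1 adds galactose to make the core 1 structure, the base of many chains. Its log2 signal was 8.05, 8.25 and 8.39 in C1, C2 and C3, and 8.12, 8.93 and 8.56 in S1, S2 and S3. The strains overlapped, with S1 between C1 and C2, and the difference was -0.31 (standard error 0.25).

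Gcnt1 and Gcnt3 both add the N-acetylglucosamine branch that turns core 1 into core 2, and Gcnt3, the mucin-type form, also makes core 4 and is found in mucus-secreting epithelium. They did not differ between strains in the same direction. Gcnt3 had a log2 signal of 10.26, 10.33 and 10.49 in C1, C2 and C3, against 9.79, 5.73 and 7.46 in S1, S2 and S3. The congenic rats were nearly alike, S1 lay 0.47 below the lowest of them, and S2 was far below the rest. The difference was 2.70 (standard error 0.94), a 6.51-fold higher level, which placed Gcnt3 at 21 from the top of the 12396 genes ordered by this difference. It was 3.75 without S1 and 1.75 without S2, and Gcnt3 was no longer past the cut-offs without C1, C2, C3 or S3, with the methods' t-test, or with the slide as a block. Within slide 1, where C1 stands alone for the congenic strain, the difference was 2.60.

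Gcnt1 had a log2 signal of 7.09, 7.16 and 6.82 in C1, C2 and C3, and of 6.93, 8.32 and 7.88 in S1, S2 and S3. S1 lay among the congenic rats and the other S rats above them, the reverse of their order at Gcnt3. The difference was -0.69 (standard error 0.37). A second Gcnt1 probe was well above background in S1 and S3 alone, at 5.15 and 4.39, and was not tested. With S2 at 2.19, this dim probe had S1 highest and S2 lowest of the S rats, unlike the brighter one.

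B3gnt7 and B3gnt3 add N-acetylglucosamine to galactose and so extend chains. B3gnt7 is known for lengthening the sulfated chains of keratan sulfate type, and B3gnt3 for extending core 1. B3gnt7 had a log2 signal of 6.49, 7.65 and 6.93 in C1, C2 and C3, and of 9.20, 13.71 and 12.68 in S1, S2 and S3. All congenic rats were below all S rats, with 1.56 between the highest congenic rat and the lowest S rat, and S1 stood well below S2 and S3. The difference was -4.84 (standard error 1.12), a 28.7-fold lower level, the 6th lowest of the 12396 genes. The SD of 2.36 among the S rats was larger than that of 98.8% of all genes, so that the size depends on which S rats are taken, being -6.18 without S1, -3.94 without S2 and -4.42 without S3. Within slide 1 it was -5.37. The probe was well above background in all 6 rats, and B3gnt7 was past the cut-offs with each rat left out in turn. As B3gnt7 was picked with this difference known, that is a description and not a test.

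B3gnt3 had a log2 signal of 7.95, 7.93 and 7.55 in C1, C2 and C3, and of 7.22, 9.35 and 8.51 in S1, S2 and S3. S1 was the lowest of the 6 rats and S2 the highest, the same order among S rats as at B3gnt7, but the congenic rats lay between them. The difference was -0.55 (standard error 0.52) at this probe, and -0.06 (standard error 0.45) at a dimmer one that was well above background in 2 of the 3 congenic rats. Without S1 the brighter probe gave -1.11 and was past the cut-offs, as 259 of 23224 probes were in that direction, and without S2 it gave -0.05.

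Fut1 and Fut2 both add the fucose that makes the H antigen, on which the blood group A and B sugars are built, and Fut2 is the form known from secretions. Fut1 had a log2 signal of 10.95, 10.78 and 10.34 in C1, C2 and C3, and of 9.54, 10.19 and 9.98 in S1, S2 and S3. The strains did not overlap, but only 0.15 separated C3 from S2. The difference was 0.78 (standard error 0.26), a 1.72-fold higher level. Fut2 had 11.46, 11.64 and 11.10 in C1, C2 and C3, and 10.33, 11.30 and 10.85 in S1, S2 and S3. Here S2 lay above C3, and the difference was 0.57 (standard error 0.30). For both genes S1 was the lowest rat of all.

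St3gal4 and St6gal1 end chains with sialic acid on galactose, in an alpha-linkage to different carbons, and St6gal1 acts mostly on N-linked chains and is known from liver and B cells. St6gal1 had a log2 signal of 9.01, 9.36 and 9.57 in C1, C2 and C3, and of 11.66, 8.77 and 11.38 in S1, S2 and S3. S1 and S3 were far above the congenic rats while S2 was below all of them. The difference was -1.29 (standard error 0.76) with all rats, and -2.21 without S2, when it was past the cut-offs. Without S2, however, 1625 of 23345 probes were lower at the cut-offs, beside 563 of 23971 with all rats. A dimmer probe, designed on another RefSeq transcript of the gene, read 5.11, 4.47 and 4.97 in C1, C2 and C3, and 6.85, 5.19 and 6.13 in S1, S2 and S3. At this probe the congenic rats were all below the S rats, with S2 only 0.07 above C1, and the difference of -1.20 (standard error 0.44) was past the cut-offs, although only 1 of the 3 congenic arrays was well above background.

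St3gal4 had a log2 signal of 8.71, 8.78 and 9.06 in C1, C2 and C3, and of 10.35, 8.91 and 10.15 in S1, S2 and S3. Again S1 and S3 were high and S2 lay among the congenic rats. The difference was -0.96 (standard error 0.40), and -1.41 without S2, when this member too was past the cut-offs, among the 1625 of 23345 probes lower then.

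**Figure D2:**
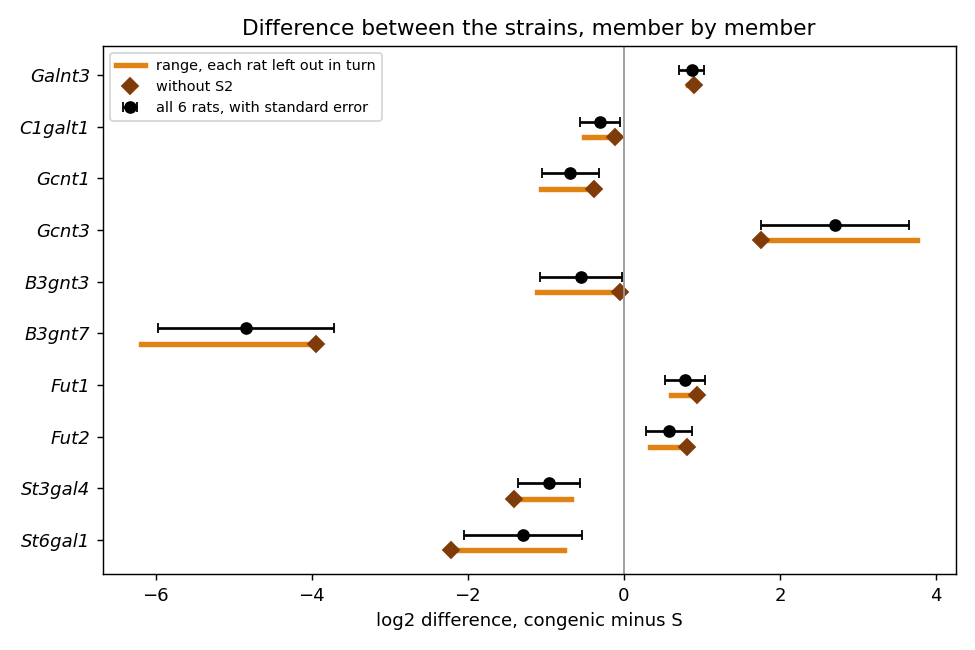
Difference between the strains (horizontal axis, log2 signal, congenic minus S) for each member (vertical axis); black points are the values over all 6 rats with their standard error, orange lines the range when each rat in turn was left out, and brown diamonds the value without S2. Galnt3 and Fut1 moved little, while leaving out S2 brought Gcnt3 and B3gnt7 nearer to 0 and took St6gal1 from -1.29 to -2.21.

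Set out by rat, the members fell into different orders among the S rats. S1 was the lowest S rat for 6 members (C1galt1, Gcnt1, B3gnt3, B3gnt7, Fut1 and Fut2), and S2 was the highest of the S rats for these and for Galnt3. Gcnt1 is counted here by its tested probe, as its dim second probe had S1 highest and S2 lowest. For the other 3 members, Gcnt3, St3gal4 and St6gal1, the order was turned, with S1 highest and S2 lowest. St3gal4 and St6gal1 were high in the same rats, S1 and S3, as the lymphocyte markers given above. The markers of high endothelial venules and lymphoid stroma, 8 listed and 7 tested, lay between -1.32 and -0.86 in the congenic rats and at 2.36, -0.96 and 2.0 in S1, S2 and S3 on the same scale. Glycam1, the venule marker not tested, was well above background in S1 and S3 alone. Of the 7 tested, 4 were lower in the congenic rats at the cut-offs. Cd34 went the other way, higher by 0.84 without overlap, and Chst4 differed by 0.09, with S2 the highest rat. What part these cells had in the levels of St3gal4 and St6gal1 was not tested.

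Other marker lists stood as follows beside the members. The average of 8 tested goblet cell and mucus genes was 0.68 in S2 and between -0.26 and 0.07 in the other 5 rats, but this rested on Retnlb, which was not well above background in any congenic rat and read 6.91, 10.32 and 8.95 in S1, S2 and S3. Without Retnlb the other 7 averaged 0.28, 0.47 and 0.05 in C1, C2 and C3, and -0.41, 0.17 and -0.56 in S1, S2 and S3, so that S2 lay among the congenic rats. This average was added after the values were seen. Striated muscle markers, 6 listed and 6 tested, were at 1.67, 0.91 and -0.09 in S2, S3 and S1, and -1.22 to -0.58 in the congenic rats, but the genes of the list differed from each other. Myh2, Acta1 and Ckm were highest in S2 and lowest in S1 among the S rats, as B3gnt7 was, while Mybpc1, Myh1 and Tnnt3 were highest in S1. The latter 3 were lower in the congenic rats at the cut-offs, and Acta1 and Ckm differed by 0.42 and 0.15. Mybpc1 and Myh1 had no congenic array well above background and were tested only because the S arrays passed the filter. Smooth muscle markers were lowest in S1, at -1.59, with the other S rats at 0.70 and -0.44 and the congenic rats between 0.36 and 0.56. Colon epithelium markers, 11 tested of 12 listed, were between 0.07 and 0.61 in the congenic rats and between -0.60 and -0.16 in the S rats, so that the strains did not overlap, as they did not at Galnt3, Fut1 and Gcnt3. The 8 absorptive colonocyte markers averaged 0.05 for S1, -0.51 for S2 and -0.48 for S3, against 0.09 to 0.59 among congenic animals. The lowest averages thus fell on S2 and S3, where Gcnt3 was lowest too, but the genes of this list were not alike. Car1 differed most, by 3.41, with 13.73 for S1, 11.49 for S2 and 10.89 for S3. Aqp8 and Ceacam1 went the other way, at -0.998 and -0.78, Aqp8 without overlap. The rest of the list was higher in the congenic strain by 0.38 to 1.07. Whether the order of the average holds without Car1 was not tested. The part of these tissues in the members' levels was not tested.

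**Figure D3:**
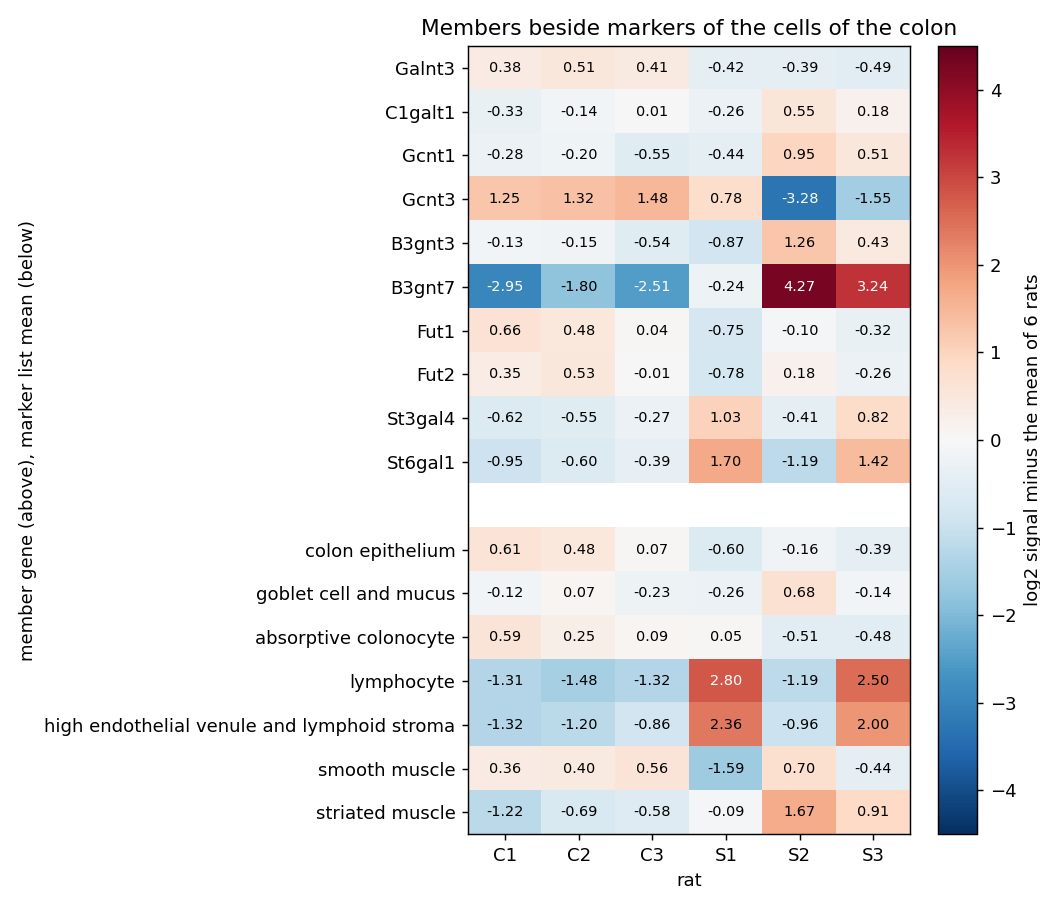
Log2 signal minus the mean of the 6 rats (color and printed value) for each member (upper rows) and for the average of each list of cell type markers (lower rows), in each rat (columns). St3gal4 and St6gal1 are red in S1 and S3, as are the lymphocyte and high endothelial venule lists, while B3gnt7 is darkest red in S2.

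The 5 genes whose levels followed those of B3gnt7 most closely over the 6 rats, by Pearson's r among 12392 genes with a value on every array, were Acly, Grem1, Tsc22d3, Nxpe4 and Zfp438. The r was 0.992 for Acly, which makes cytosolic acetyl-CoA, and 0.985 for Grem1, an antagonist of bone morphogenetic proteins. It was 0.984 for Tsc22d3, a gene induced by glucocorticoids, 0.980 for Nxpe4 and 0.979 for Zfp438. These are the highest of many values over few rats, and the difference between the strains enters each of them. Nxpe4 had the widest range of the 5, with 8.39, 8.75 and 7.82 in C1, C2 and C3, and 10.26, 12.29 and 11.90 in S1, S2 and S3. As at B3gnt7, S1 stood between the congenic rats and the other S rats. Acly differed by -0.39 between the strains and B3gnt7 by -4.84, so that a like order went with changes of very different size.

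The other genes of the enzyme families of mucin-type chain synthesis, 71 listed and called pathway genes below, gave 56 matched and 48 tested genes. The families also take in enzymes of other sugar chains, among them St3gal5 and B4galnt1, which make gangliosides. Of these 48, 5 (10.4%) were higher and 6 (12.5%) lower in the congenic rats at the cut-offs, beside 3.79% and 2.63% of all genes, and 37 did not pass them, with a median difference of 0.20 beside 0.03 over all genes, and no adjusted p from limma was under 0.05. The congenic rats were wholly above the S rats for 11 of the 48 and wholly below for 6, beside 14.2% and 4.98% of all genes.

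Of 12 other GalNAc-transferases, Galnt16 and Galnt7 were higher and Galnt14 lower. Galnt7, which prefers peptides that already carry a sugar, had 9.11, 9.15 and 8.49 in C1, C2 and C3, and 7.65, 7.79 and 7.56 in S1, S2 and S3, a difference of 1.25 (standard error 0.23, adjusted p = 0.209 with limma) without overlap, in the direction of Galnt3. Galnt16 differed by 1.54 (standard error 0.58, limma adjusted p = 0.362), with S2 at 9.41 among the congenic rats, and Galnt14 by -1.54 (standard error 0.39, limma adjusted p = 0.272), which was -0.92 and no longer past the cut-offs with normexp background correction. The brightest of this family, Galnt18 and Galnt2, were not past the cut-offs, at 0.39 and 0.41.

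Neither tested core gene outside the members passed. C1galt1c1, the chaperone that C1galt1 needs, differed by 0.22 (standard error 0.21), and B3gnt6, which makes core 3, by 0.05 (standard error 0.49). Among 15 other extension and branching genes B3gnt2, which makes poly-N-acetyllactosamine, was the one past the cut-offs. It had 7.82, 7.77 and 7.94 in C1, C2 and C3, and 9.97, 8.31 and 9.36 in S1, S2 and S3. The strains did not overlap, and S2 was the S rat nearest to the congenic rats, where B3gnt7 had S1. B3gnt2 differed by -1.37 (standard error 0.42, limma adjusted p = 0.320) and by -1.79 at a second probe. B3galt5, which adds galactose to extended chains, and the branching enzyme Gcnt2 did not overlap between strains and were under 2-fold at their brightest probes, at 0.75 and 0.60. A dimmer probe of B3galt5 was past the cut-offs, at 1.02 (standard error 0.33, limma adjusted p = 0.334), with 2 of the 3 congenic arrays well above background.

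Of 3 other fucosyltransferases tested, Fut9 was higher, at 2.45 (standard error 0.69, limma adjusted p = 0.294), but only 1 of its 3 S arrays was well above background. With normexp background correction it was at 0.999 and not past the cut-offs. Fut7, which makes the selectin ligand on lymphocytes and venules and is itself on the venule list, had no congenic array well above background. Its mean level there was lower by about 1.29-fold or more, but the strains overlapped, with C3 at 4.82 and S2 at 4.73. Fut7 was tested only because the S arrays passed the filter. Its measured difference was -1.19 (limma adjusted p = 0.348), and -0.47 with normexp background correction, when it was not past the cut-offs. The bound is the mean of the S rats against the lowest signal well above background, or the probe's own where that was higher, on each congenic array. Fut4 differed by -0.06 and did not keep its sign when rats were left out.

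Among 8 other sialyltransferases St6galnac2, which adds sialic acid to the first GalNAc, was higher by 1.20 (standard error 0.28, limma adjusted p = 0.263), and St3gal5, the enzyme of ganglioside GM3, was lower, at -2.05 (standard error 0.68, limma adjusted p = 0.336). St3gal5 had 10.50, 7.78 and 9.75 in S1, S2 and S3, and 6.97, 7.27 and 7.65 in C1, C2 and C3, the same order of the S rats as St3gal4 and St6gal1. St3gal2 differed by -0.10.

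Of 5 sulfotransferases and 3 genes of other terminal sugars tested, Gal3st1 was higher by 1.06 (standard error 0.20, limma adjusted p = 0.210), and Chst1 and B4galnt1 were lower. Chst1, which sulfates galactose in keratan sulfate, had 7.45, 7.35 and 7.84 in C1, C2 and C3, and 11.67, 7.77 and 10.92 in S1, S2 and S3. S2 lay among the congenic rats, so that Chst1 did not share the order of B3gnt7, which was highest in S2. The difference of Chst1 was -2.57 (standard error 0.96, limma adjusted p = 0.361), and that of B4galnt1, which makes gangliosides, was -2.69 (standard error 0.97, limma adjusted p = 0.353). Gal3st4 at 0.18, B4galnt4 at 0.89 and Abo, the blood group transferase that acts on the product of Fut1 and Fut2, were not past the cut-offs at their brightest probes. Abo differed by 0.53 at its brighter probe, with S1 the lowest rat as for Fut1 and Fut2, and by 1.14 (standard error 0.21, limma adjusted p = 0.209) at a second probe, which was past the cut-offs without overlap. With the second probe of B3galt5 and Abo, 7 other pathway genes in place of 5 were higher.

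All 6 pathway genes that were lower in the congenic rats had S2 as the lowest S rat, as did 287 (88%) of the 326 genes lower among all genes tested. B3gnt7 was not of this kind, since S2 was its highest rat. Without S2, Galnt14, B3gnt2, St3gal5, Chst1 and B4galnt1 were still past the cut-offs, with differences of -2.0, -1.84, -2.86, -3.77 and -3.89. Fut7 was not tested then. Without S1 the last 4 of these differed by -0.99, -1.46, -1.79 and -1.97 and were not past them.

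**Figure D4:**
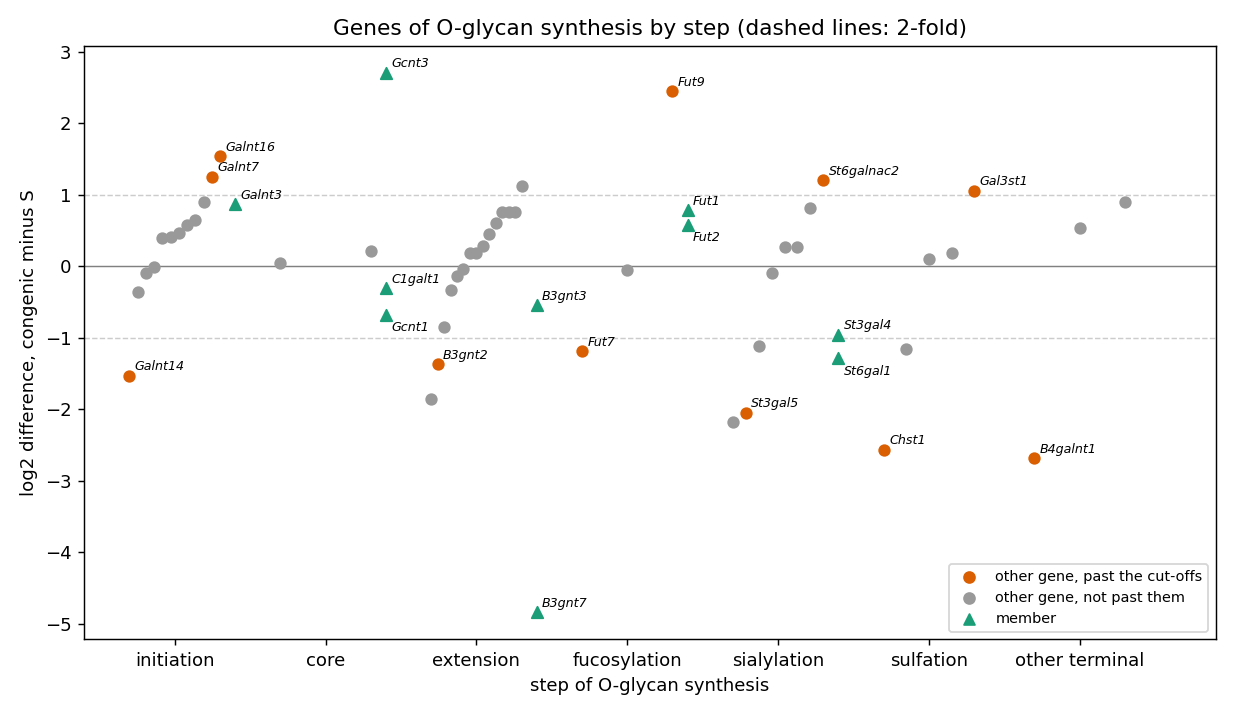
Difference between the strains (vertical axis, log2 signal, congenic minus S) for each tested gene of the listed enzyme families, grouped by step (horizontal axis); green triangles are the 10 members, orange points the 5 higher and 6 lower other genes past the cut-offs, grey points the other genes, and dashed lines a 2-fold change. B3gnt7 at -4.84 and Gcnt3 at 2.70 lie at the ends, and each step from initiation to sialylation holds genes on both sides of 0.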

How the data were processed

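Colon RNA of 3 S.LEW congenic and 3 S rats was read on 1 single-color array per rat. The authors processed the scans with Feature Extraction 11.0.1.1 (version per the submitters' processing notes), and the deposited scanner files hold a background-corrected intensity for each of 42877 spots that are not controls. The authors also deposited log2 values quantile-normalized in GeneSpring for 23997 probes, used here as an alternative. Their correlation with the values computed here was at least 0.9999 on every array, and the values of member probes differed by at most 0.00862, with 12 of 13 member probes in that table.

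Here the log2 intensity of unflagged spots was averaged per probe and quantile-normalized, and 23971 of 30367 probes, those whose signal was well above background on 3 or more of the 6 arrays, were tested. The test was limma's moderated fit (version 3.58.1, R 4.3.3) with the strain as its only term and adjusted p-values by Benjamini and Hochberg. The number of arrays limits the precision. Each sample was 1 rat. The rats were caged in pairs of an S and a congenic rat, and which of these rats shared a cage is not given in the sources used here, so p-values take the rats as independent. Median intensity was 214 to 594 per array, with 73.8% to 87.6% of spots well above background and none saturated. No member spot was flagged. Accessions were matched to RefSeq genes of GRCr8, 18005 probes to 15168 genes, and motifs were searched in RefSeq promoters with Python 3.11.15. Plots were drawn with matplotlib 3.10.9. The test was checked on simulated data.

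The members and the gene and marker lists were chosen with earlier results of these data known. Named genes were all members, other pathway genes past the cut-offs, up to 2 of the brightest genes of each step, up to 3 of the brightest markers of a list, and the 5 genes nearest to B3gnt7. Cd3e, Cd2, Cd79b, Ccr7, Glycam1, Cd34, Chst4, Retnlb, Mybpc1, Myh1, Myh2, Aqp8 and Ceacam1 were named after their values were seen. Marker lists for transmembrane mucins, germinal centre, plasma cell, macrophage, adipocyte and enteric neuron and glia were also computed. Alternatives were 75th percentile scaling, the deposited values, normexp background correction (offset 50), no filter or one on all 6 arrays, array weights, the methods' t-test, a block for the slide or for the replicate number, flagged spots kept, the second probe of a gene, and each rat left out.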

Additional observations from a re-analysis of the deposited data

How the results depend on the processing

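No member changed sign under any of its 17 alternatives. The count of members higher was 0 with the methods' t-test and 0 to 1 with each rat left out. The count lower was 3 with array weights (B3gnt7, St3gal4 and St6gal1), 2 with the second probe of a gene (B3gnt7 and St6gal1) and 1 to 3 with each rat left out. With the slide as a block Fut1 was the member higher, in place of Gcnt3, and B3gnt7 the one lower.

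Of the other pathway genes, 3 were higher with normexp and 11 with array weights, and 2 were lower with the methods' t-test and 2 with the slide as a block. With each rat left out, 3 to 8 were higher and 2 to 8 lower. Over all probes, 359 were higher with normexp, 514 with the methods' t-test and 1988 with array weights, and 484 to 2413 with each rat left out. Lower were 342 with the filter on all 6 arrays, 172 with the methods' t-test, 1634 with array weights, 225 with the slide as a block and 126 to 1625 with each rat left out. An adjusted p under 0.05 from limma was reached by 1 probe with 75th percentile scaling, 8135 with array weights and 0 to 5693 with each rat left out, the most without S2. Fut9, Galnt7 and Galnt14 were past the cut-offs with each rat left out, but Fut9 and Galnt14 were not with normexp, and Fut9 was not tested with the filter on all 6 arrays. Fut7 was not past them with normexp, the methods' t-test, the slide as a block, or without C1 or C2, and was not tested with the filter on all 6 arrays or without S1, S2 or S3. With rats left out, B4galnt1 and Chst1 were past them only without S2, St3gal5 only without S2 or C3, and Galnt16 only without S2 or C2. B3gnt2 was lost without S1, St6galnac2 without S2, and Gal3st1 without C1 or S3. Apart from rats left out, B4galnt1, Chst1, St3gal5 and Galnt16 were not past the cut-offs with the methods' t-test or with the slide as a block. Nor was B3gnt2 with the slide as a block, or Gal3st1 with normexp. The cause was not tested. With 75th percentile scaling 692 probes were higher and 760 lower.

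Of the genes outside the members, St3gal2 turned to 0.086 with array weights, C1galt1c1 to -0.0021 with the slide as a block, and Fut4 to 0.065 with the slide as a block and 0.014 with its second probe. With each rat left out, B3gnt6 ran from -0.39 to 0.44, Fut4 from -0.64 to 0.31, St3gal2 from -0.50 to 0.36 and Abo from -0.16 to 1.02.

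The replicate numbers are not known to pair the rats. The deviations of C1 and S1, C2 and S2, and C3 and S3 from their own strain correlated at -0.02, -0.13 and -0.06, which cannot show whether any of them shared a cage. With the replicate block 791 probes were higher and 743 lower, 4 other pathway genes higher and 7 lower, and 1 member higher and 1 lower, and the differences themselves were as without the block. Galnt16 was no longer past the cut-offs. Dim probes limit what can be said of Fut7, Fut9 and the second probes of Gcnt1, B3gnt3 and St6gal1. With 3 rats per strain and C1 the only congenic rat beside S rats on a slide, slide and strain are largely confounded.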

Other observations

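Marker lists computed beside the members, and not described above, gave these values relative to the mean of the 6 rats. The 2 tested germinal centre genes averaged between -1.04 and -0.71 in the congenic rats, 1.56, -0.07 and 1.01 in S1, S2 and S3. Of 4 plasma cell genes 2 were lower in the congenic rats, the average running from -1.19 to 0.13 there, with 1.29, -0.79 and 1.69 in S1, S2 and S3. Macrophage genes overlapped between the strains, from -0.50 to 0.20 in the congenic rats and from -0.59 to 0.46 in the S rats. The 4 adipocyte genes did not overlap, at 0.19 to 0.79 in the congenic rats and -0.67 to -0.37 in the S rats. Genes of enteric neurons and glia lay between -0.07 and 0.73 in the congenic rats and between -0.89 and 0.50 in the S rats. Of the 7 transmembrane mucins listed, 1 was tested, Muc20, which overlapped between the strains and differed by 0.42.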
